A study of Mus musculus with 8 samples.

Results

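Aminoacyl-tRNA synthetases are the enzymes that load each tRNA with its amino acid, and their mRNAs were followed here in irradiated and non-irradiated mouse colon fibroblasts. The members were chosen by gene symbol: protein-coding genes whose symbol is that of a cytosolic or mitochondrial synthetase, which gave 38 of the 55573 genes in the count tables. Of these, 19 encode cytosolic enzymes, 17 encode mitochondrial enzymes, and Gars and Kars each encode both forms. The symbol pattern used no expression value, but the family was selected on results of this same comparison, so the calls below describe the fit and support nothing independently of it. All 38 members passed the filter on low counts, and their totals per library ran from 205 counts for Sars2 to 17290 for Gars and Nars.

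The cells were colon fibroblasts of C57BL6/J mice on tissue culture plates in Advanced DMEM F12 with 10% FBS. All 8 libraries came from cells given conditioned medium of APTKA, which the labels leave unexplained. The 4 non-irradiated libraries (I to IV) are compared with 4 libraries (I to IV) from cells that received 3 fractions of 2 Gy, all collected 72 h after the first dose. The design text calls the samples independent without naming separate animals or cultures, so the tests rest on a spread among libraries that could be technical. The cells were labelled as fibroblasts and grown outside the tissue. Library totals ran from 28731227 to 37157216 counts. Fibroblast markers were abundant (6 genes, summed level 9990 to 11180 CPM, reads scaled to library size, without irradiation and 8870 to 9743 after it), and 2 of them, Col1a2 and Vim, were called lower after irradiation. Col1a2 kept its call whichever 1 library was left out, and Vim lost its call in 7 of the 8 omissions, all but that of irradiated III. Summed epithelial markers stayed between 0.433 and 1.14 CPM and endothelial markers between 0.494 and 0.906 CPM. Leukocyte markers summed to 2.86 to 4.11 CPM, nearly all from Cd68, and smooth muscle markers to 5.53 to 7.77 CPM, mostly from Myh11. Irradiated libraries I and II stood apart from the other 6 by their mitochondrial rRNA: mt-Rnr1, the small ribosomal RNA of the mitochondrion, read 3633 and 3872 CPM there against 522 to 788 CPM elsewhere.

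Each synthetase recognises 1 amino acid and joins it to its tRNAs at the cost of ATP, and the charged tRNA is then carried to the ribosome by elongation factors. Cytosolic and mitochondrial protein synthesis use separate sets of enzymes, nearly all encoded by separate nuclear genes. Several cytosolic enzymes sit together in a multi-synthetase complex on the scaffold proteins AIMP1, AIMP2 and EEF1E1. When an amino acid runs short, uncharged tRNA activates the kinase GCN2, eIF2 is phosphorylated, and the transcription factor ATF4 is translated and raises amino acid enzymes, transporters and many cytosolic synthetases through amino acid response elements in their promoters. Nuclear respiratory factor 1, NRF1, is a regulator of many nuclear genes for mitochondrial proteins.

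Promoter windows of the members show which of them carry these elements, and the stretches are printed because the elements fell in different classes of the family. RefSeq windows on GRCm38.p6, 300 bases long with 250 before the start and 50 after it, were given for 28 of the 38 members. In 23 of their 29 windows the bases after the start also lay near the opening of a GENCODE transcript of the gene. The other windows were kept, so their starts are less certain. The motif TGATGNAA, the amino acid response element, was searched on both strands and was found for 5 of 14 cytosolic or dual genes (Aars, Gars, Iars, Tars and Yars) and for 0 of 14 mitochondrial genes. Of all 32851 windows, 3.97% held it. The core of the NRF1 motif, GCGCATGC, was found for 0 of 14 cytosolic or dual genes and for 3 of 14 mitochondrial genes (Rars2, Vars2 and Wars2), and for 2.71% of all windows. The E-box CACGTG, a site of MYC family factors, was found for Aars, Farsb, Iars and Tars, for the mitochondrial Ears2, and for 7.15% of all windows. These are letter matches, not binding sites. Stretches of 30 bases from 7 of these genes follow on the gene's own strand, 5′ to 3′, with the element in capitals. The Iars, Tars and Yars stretches touch an annotated exon of the gene itself, and the Rars2 stretch touches one of Orc3, which runs the other way.
Gars, chr6:55037960-55037989 (plus strand): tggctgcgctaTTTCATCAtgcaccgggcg
Iars, chr13:49682126-49682155 (plus strand): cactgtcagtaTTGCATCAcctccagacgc
Tars, chr15:11399655-11399684 (minus strand): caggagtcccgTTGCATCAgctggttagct
Yars, chr4:129189895-129189924 (plus strand): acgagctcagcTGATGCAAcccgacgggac
Rars2, chr4:34614895-34614924 (plus strand): cggccccgtgtGCATGCGCactccacactt
Vars2, chr17:35667620-35667649 (minus strand): gagtcttttacGCATGCGCctgcgtgtccc
Wars2, chr3:99141015-99141044 (plus strand): ccagaggacagGCGCATGCgtagtaagcac

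For 33 of the 38 synthetase mRNAs the irradiated and non-irradiated libraries overlapped. At an adjusted p under 0.05 in edgeR's quasi-likelihood test, with Benjamini-Hochberg adjustment over 15259 genes, 2 of the 38 members were called lower, Vars and Yars, and none was called higher. Over all genes tested, 4.15% were called lower and 2.59% higher. None of the 38 was called higher in DESeq2 or limma-voom either. The 38 members had a median log2 fold change, irradiated over non-irradiated, of -0.05, against 0.00 for all genes tested. Groups did not overlap, with every irradiated library below every non-irradiated one, for 5 members (Vars, Yars, Lars, Farsb and Sars2), a pattern that 8.07% of all genes tested showed. No member had all irradiated libraries above the non-irradiated ones, against 6.13% of all genes.

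The cytosolic genes lay slightly below 0 as a group: 18 of 19 had a log2 fold change below 0, with a median of -0.07 and a range of -0.18 to 0.04, where 7587 of the 15259 genes tested lay below 0. With Gars and Kars the count was 19 of 21, again with a median of -0.07. Of the 19 cytosolic genes, 16 lay below 0 without irradiated I and II and 15 without non-irradiated I and III, with medians of -0.07 and -0.05. Summed over these 21 genes, the level was 4846, 4644, 4929 and 4747 CPM in non-irradiated libraries I to IV and 4568, 4490, 4743 and 4580 CPM in irradiated libraries I to IV. The groups of sums overlap, since irradiated III exceeds non-irradiated II and lies just below IV. Mitochondrial genes did not show this: 7 of 17 lay below 0, and without Lars2 the 16 others had a median of 0.02 with a range of -0.29 to 0.14. Their sum without Lars2 was 595.5 ± 11.2 CPM without irradiation and 599.4 ± 12.4 CPM after it (SD, n = 4). Medians of the cytosolic group were also -0.07 with RLE and upper-quartile factors, and neither factor moved the median of all genes by over 0.01.

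**Figure D1:**
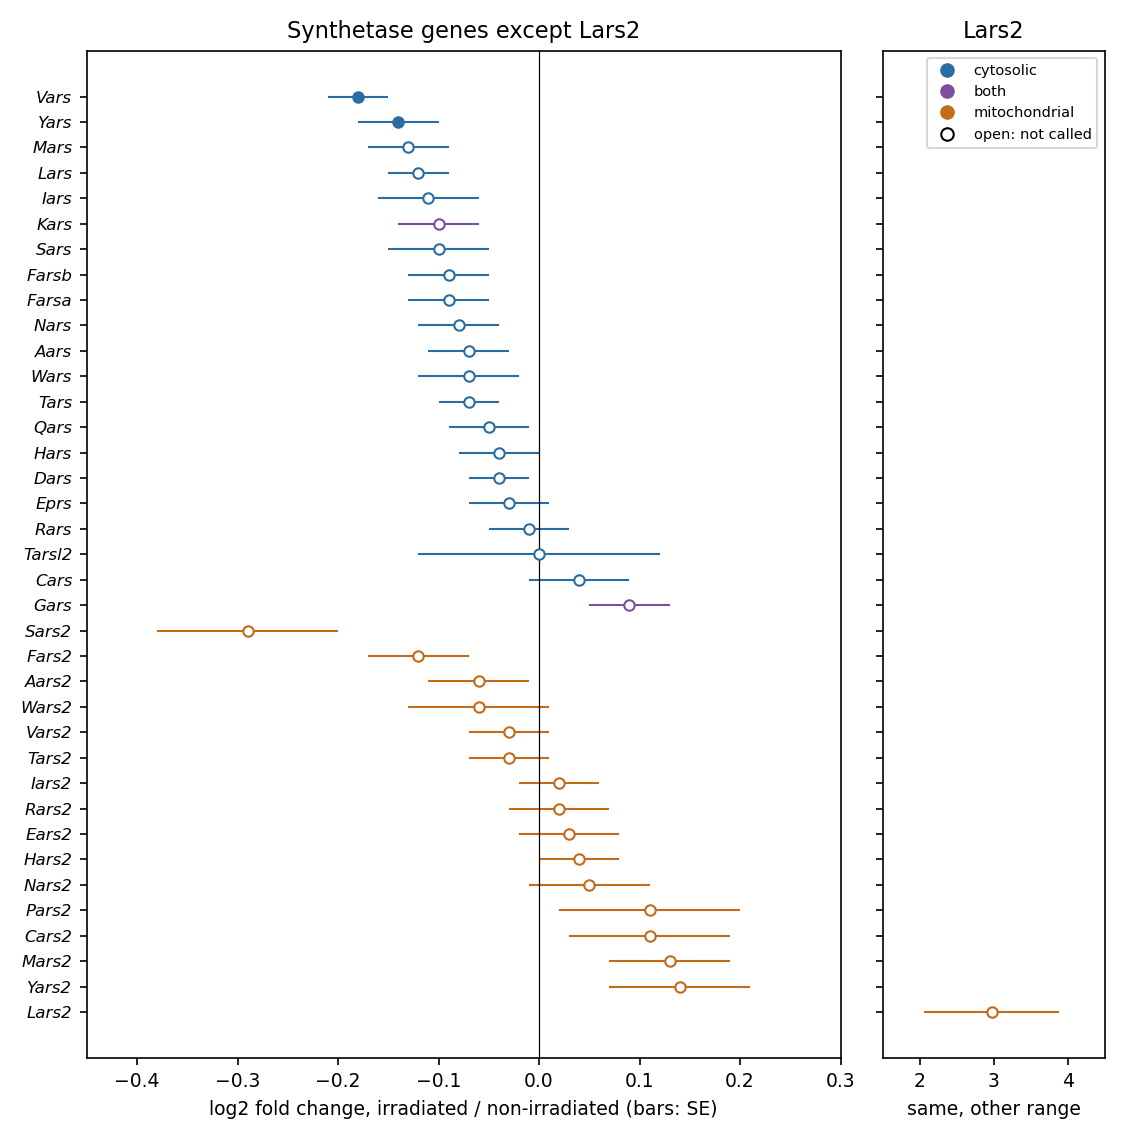
Log2 fold change of 37 synthetase genes, irradiated over non-irradiated, with its SE (horizontal axis, log2 units), cytosolic and dual genes above and mitochondrial genes below. Filled points are the 2 called members, Vars and Yars, and Lars2, at 2.97, has a panel with its own range.

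The same comparison can be resolved by library. Relative to each gene's own non-irradiated mean, the median cytosolic or dual gene stood at -0.09, -0.10, -0.04 and -0.08 log2 units in irradiated I to IV, and 19, 20, 14 and 18 of the 21 genes lay below 0 there. In non-irradiated I to IV, whose mean is the reference, the medians were 0.02, -0.04, 0.04 and -0.02, with 8, 16, 5 and 14 genes below 0. Non-irradiated II and irradiated III thus share a median, and the other irradiated libraries lie lower. For the 16 mitochondrial genes without Lars2, the medians in irradiated I to IV ran from -0.01 to 0.03, inside the range of -0.06 to 0.04 of the non-irradiated libraries.

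**Figure D2:**
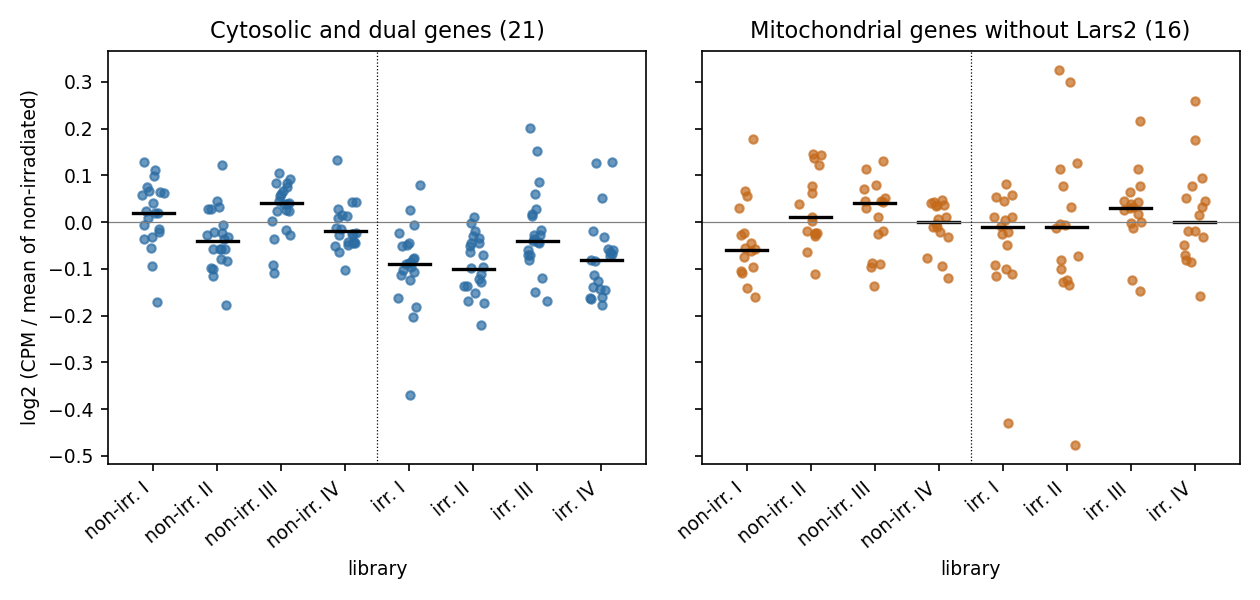
Level of each synthetase gene in each library relative to its non-irradiated mean (vertical axis, log2 of the CPM ratio; points are genes, bars are medians), with 21 cytosolic and dual genes on the left and 16 mitochondrial genes on the right. The left medians lie between -0.10 and -0.04 in the irradiated libraries, and the right medians between -0.01 and 0.03.

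Vars, the cytosolic valyl-tRNA synthetase (ENSMUSG00000007029, chr17:35000987-35016322, plus strand, mm10), had the smallest adjusted p of the family. Its level was 218.7, 219.9, 210.4 and 213.5 CPM in non-irradiated I to IV and 190.2, 185.1, 191.7 and 192.9 CPM in irradiated I to IV. Every irradiated library lay below every non-irradiated one, and the gap between the groups exceeded the range within either. Mean levels were 215.6 ± 4.43 and 190.0 ± 3.42 CPM (SD, n = 4), a log2 fold change of -0.18 (SE 0.03) with an adjusted p of 0.0038. The call held when any 1 library was left out, but not when irradiated I and II were left out together (-0.17, adjusted p = 0.0756), the pair with high mitochondrial rRNA.

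Yars, the cytosolic tyrosyl-tRNA synthetase whose promoter element is printed above (chr4:129189760-129219607, plus strand), was at 140.9, 130.0, 138.9 and 131.2 CPM in non-irradiated I to IV. The irradiated libraries read 120.9, 120.3, 127.8 and 120.6 CPM. All 4 lay below the lowest non-irradiated value, irradiated III by the least. The log2 fold change was -0.14 (SE 0.04) with an adjusted p of 0.0491, just inside the threshold, and the call was lost without any 1 library other than non-irradiated II (adjusted p 0.0517 to 0.139). Yars shares 30 exon bases with C77080 on the opposite strand, and as the strand setting of the counting is not given, reads from that stretch cannot be told apart.

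Lars and Farsb also had groups that did not overlap, without being called. Lars, the cytosolic leucyl-tRNA synthetase and a leucine sensor of the mTORC1 pathway, stood at 200.7, 212.5, 205.9 and 214.7 CPM without irradiation and 197.4, 189.7, 192.0 and 189.2 CPM after it. The log2 fold change was -0.12 (adjusted p = 0.0578), and DESeq2 called it. Farsb, the beta subunit of phenylalanyl-tRNA synthetase, was at 143.7 to 152.8 CPM and at 133.9 to 141.7 CPM (log2 fold change -0.09, adjusted p = 0.162). Its partner subunit Farsa had the same log2 fold change of -0.09, with overlapping groups.

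Mars, the methionyl-tRNA synthetase that charges both initiator and elongator tRNA, read 189.6, 167.8, 180.2 and 171.0 CPM without irradiation and 162.7, 159.5, 169.9 and 156.7 CPM after it. Irradiated III, at 169.9 CPM, overlapped non-irradiated II, and the log2 fold change of -0.13 (SE 0.04) was not called (adjusted p = 0.106). Mars shares 68 exon bases with Ddit3, a stress-response gene on the opposite strand, which was itself at 95.2 to 108.7 and 101.1 to 106.7 CPM.

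The 8 enzymes of the multi-synthetase complex in this set (Dars, Eprs, Iars, Kars, Lars, Mars, Qars and Rars) all had log2 fold changes below 0, from -0.13 for Mars to -0.01 for Rars, with a median of -0.07. Without irradiated I and II 7 of the 8 lay below 0, and without non-irradiated I and III 6 did, Qars and Rars turning to 0.01. The 13 cytosolic or dual genes outside the complex had the same median of -0.07, with 11 below 0. In the fit used throughout, neither the complex nor its scaffold held a called gene, where 4.15% of all genes were called lower and 2.59% higher. Lars was called lower with DESeq2 and without non-irradiated I, alone or together with III. Mars was called lower with a block on the replicate numeral. Rars, the arginyl enzyme, was nearly level at 315.9, 308.4, 336.0 and 322.5 CPM and at 310.8, 310.9, 334.3 and 313.7 CPM, and its log2 fold change turned to 0.01 without non-irradiated III. The scaffold genes Aimp1, Aimp2 and Eef1e1 lay at -0.05, -0.23 and -0.10.

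Gars, the glycyl-tRNA synthetase whose single gene serves both compartments (chr6:55038007-55079500, plus strand), was the exception among the abundant genes. Its level was 426.1, 418.6, 436.1 and 431.8 CPM without irradiation and 452.1, 431.6, 475.6 and 467.3 CPM after it. Irradiated I, III and IV exceeded every non-irradiated library, while irradiated II fell inside their range. The log2 fold change of 0.09 (SE 0.04) was not called (adjusted p = 0.161). Kars, the other dual gene, lay on the opposite side at -0.10 (adjusted p = 0.152). Cars, the cysteinyl enzyme, was the remaining cytosolic gene above 0, at 0.04, and turned to -0.01 without non-irradiated II.

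Of the other cytosolic genes, Nars, the asparaginyl enzyme, read 428.8, 414.0, 467.6 and 442.9 CPM without irradiation and 410.3, 409.9, 417.6 and 417.1 CPM after it. Only non-irradiated II fell within the irradiated range, and the log2 fold change was -0.08 (adjusted p = 0.239). Aars, Tars and Iars, which carry the amino acid response element as Yars does, lay at -0.07, -0.07 and -0.11 without a call. Of the 5 genes with the element 4 were below 0 and Gars above it, where 19 of all 21 cytosolic or dual genes lay below 0. Tarsl2, a second cytosolic threonyl-tRNA synthetase, was barely expressed beside Tars (8.64 ± 0.936 against 264.1 ± 6.24 CPM, SD, n = 4) and had a log2 fold change of 0.00.

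Among the mitochondrial genes other than Lars2, Sars2, the mitochondrial seryl-tRNA synthetase (chr7:28741992-28753871, plus strand), differed most. It stood at 8.08, 8.70, 8.90 and 8.85 CPM without irradiation and at 6.41, 6.20, 7.92 and 7.74 CPM after it. All irradiated libraries lay below all non-irradiated ones, and irradiated I and II, with high mitochondrial rRNA, lay lowest. The log2 fold change was -0.29 (SE 0.09) with an adjusted p of 0.0769. It was measured from only 205 to 329 counts per library. Without irradiated I and II the log2 fold change was -0.14 (adjusted p = 0.486).

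Yars2, the mitochondrial tyrosyl enzyme, pointed the other way from Yars. It read 37.6, 46.5, 42.9 and 41.1 CPM and then 40.6, 45.5, 48.8 and 50.3 CPM, with irradiated III and IV above every non-irradiated library and I and II among them. The log2 fold change of 0.14 (SE 0.07) was not called (adjusted p = 0.29). Vars2, the mitochondrial partner of Vars with the NRF1 core printed above, stood at 62.6, 58.6, 63.5 and 60.4 CPM and at 60.2, 57.9, 61.2 and 60.5 CPM, a log2 fold change of -0.03 (adjusted p = 0.708). Iars2, the isoleucyl enzyme, read 151.9, 163.4, 153.8 and 157.3 CPM and 157.9, 155.9, 161.4 and 161.6 CPM (0.02, adjusted p = 0.761). Iars2 shares 2034 exon bases with Rab3gap2 on the opposite strand, and whether its counts gained or lost reads there was not tested.

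Lars2, the mitochondrial leucyl-tRNA synthetase (chr9:123366927-123462666, plus strand), had the widest spread of the 38 members among the irradiated libraries. Its level was 27.9, 13.1, 24.0 and 17.1 CPM in non-irradiated I to IV and 119.7, 499.5, 12.8 and 11.6 CPM in irradiated I to IV. Irradiated I and II were far above every other library, and irradiated III and IV were below every non-irradiated one. In counts, the irradiated libraries held 4331, 16517, 466 and 352 reads. Irradiated I was 9.81 times and irradiated II 40.9 times the mean of III and IV.

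The group means of Lars2 were therefore 20.6 ± 6.68 and 160.9 ± 231.4 CPM (SD, n = 4), and the second describes none of its libraries. Its log2 fold change of 2.97 (SE 0.91) was not called (adjusted p = 0.0694), and limma-voom gave 1.48 (adjusted p = 0.462). The estimate turned to -0.75 (SE 0.23, adjusted p = 0.109) without irradiated I and II, and it was 1.23 without irradiated II alone. Without irradiated III or without irradiated IV it was 3.36 and called (adjusted p = 0.0225 and 0.0281). Lars2 took 1.87% to 4.58% of all mitochondrial synthetase CPM in the other 6 libraries, 16.9% in irradiated I and 45.8% in irradiated II. The summed mitochondrial synthetase level of 707 and 1090 CPM in these 2 libraries, against 609.4 to 624.5 CPM elsewhere, rests on this 1 gene.

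The genes most like Lars2 were taken as the 8 with the highest Pearson correlation of log2 CPM over the 8 libraries among genes with a mean of at least 5 CPM, given as a description. They included Gm15564 (r = 0.98), 2310057M21Rik (0.93), mt-Rnr1 (0.92), Gpkow and Ciz1 (0.91), Yipf3 (0.90) and Mir6236 (0.89). Both genes in each correlation were read from the same 8 libraries with the same scaling, and irradiated I and II set these values. Gm15564 reached that mean only through irradiated I and II, so its place rests on the libraries where it is high. Without this pair, over 6 libraries, r was 0.85 for Gm15564, 0.81 for Mir6236 and 0.74 for Yipf3, and 0.05 for mt-Rnr1 and -0.08 for 2310057M21Rik. Correlation does not measure the size of a change. Over all 8 libraries 2310057M21Rik ran only from 20.4 to 23.0 CPM and Gpkow from 52.6 to 60.3 CPM. Ciz1 ran from 56.7 to 63.7 CPM and Yipf3 from 46.8 to 81.3 CPM, where Lars2 ran from 11.6 to 499.5 CPM.

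Gm15564, annotated as an antisense transcript on chr16 (35966752 to 35983230, minus strand), read 7.56, 1.43, 3.43 and 1.86 CPM without irradiation and 22.3, 87.7, 2.83 and 1.22 CPM after it. Irradiated II exceeded irradiated I by 3.94 times for Gm15564 and by 4.17 times for Lars2. For the mitochondrial rRNAs that ratio was 1.07 (mt-Rnr1) and 0.993 (mt-Rnr2, the large rRNA), so both rRNAs were about equally high in the 2 libraries while Lars2 was not. The Mir6236 locus read 109.7, 15.4, 81.9 and 65.9 CPM and 176.4, 385.9, 37.4 and 40.2 CPM, in the same order of irradiated II over I.

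**Figure D3:**
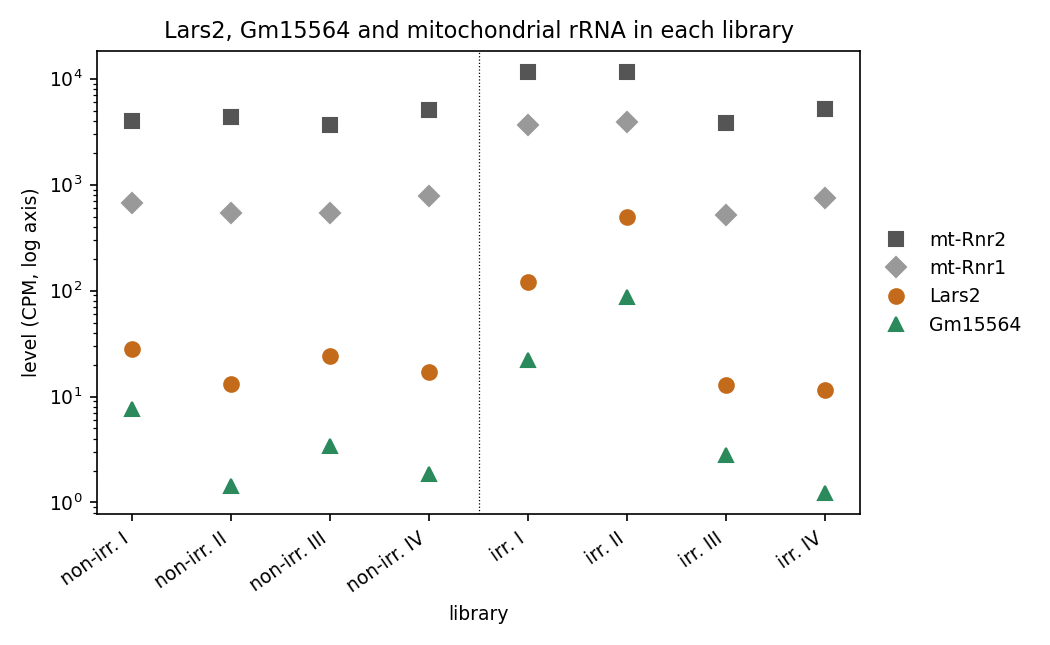
Level of Lars2, Gm15564 and the mitochondrial rRNAs mt-Rnr1 and mt-Rnr2 in each of the 8 libraries (vertical axis, CPM on a log axis). Lars2 and Gm15564 are highest in irradiated II (499.5 and 87.7 CPM) and next in irradiated I, whereas both rRNAs are about equally high in these 2 libraries.

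Lars2 and Gm15564 share sequence. The longest coding transcript of Lars2 (3894 bases, stop codon ending at base 2908) was searched with blastn against all GENCODE M21 transcripts. With a word size of 16 and a strict limit on chance matches (E-value), it matched 2 genes other than Lars2. In Gm15564, 71 of 72 aligned bases were identical, at bases 3278 to 3349 of the Lars2 transcript, in its 3′ UTR (chr9, 123462048 to 123462119). AA474408 aligned over 196 columns at 80.1% identity in the same UTR, and its level was 2.40 and 2.21 CPM in irradiated I and II against 1.68 to 2.83 CPM in the other 6 libraries. No transcript of the mitochondrial rRNA genes matched this query within these limits. The merged exons of Lars2 span 11089 bases, and those outside the 3894 of the query were not searched. As the counts are per gene, where in Lars2 the reads of irradiated I and II fall, and how reads mapping to both loci were handled, was not tested.

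Levels across the family were compared per kilobase of merged exons in the non-irradiated libraries. Gars was highest at 137.3 CPM per kilobase (134.2 to 139.8 over the 4 libraries), above every value of the next gene. Nars (100.6) and Rars (99.4) followed with overlapping ranges, then Sars (82.2), Kars (58.4), Farsb (56.5), Mars (51.8), Aars (47.7) and Tars (44.8). Sars stood clear of its neighbours, while each gene from Kars to Aars overlapped the next. Hars, Dars, Lars, Vars and Wars lay between 40.4 and 35.7, each overlapping the next, and Cars, Eprs, Yars, Farsa and Iars between 27.4 and 20.6.

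The mitochondrial genes were lower, and by merged exons Iars2 (17.6) was the only one above a cytosolic gene other than Tarsl2, since it exceeded Qars (15.3). Yars2 (13.3), Vars2 (11.2), Rars2 (10.7), Tars2 (9.79), Hars2 (8.82) and Aars2 (7.74) came next. Fars2, Ears2, Pars2 and Nars2 ran from 4.53 down to 3.02, and Sars2, Mars2, Wars2, Lars2 (1.85), Cars2 (1.31) and the cytosolic Tarsl2 (1.28) closed the order with each overlapping its neighbour. By the length of the longest coding transcript instead, a choice made after seeing the data, Gars, Nars and Rars kept ranks 1 to 3, and Eprs, the fused glutamyl and prolyl enzyme, moved from rank 16 to 6. On that scale Iars2 (28.6) lay below Qars (35.9) and above Iars (24.5).

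For 14 pairs of a cytosolic gene and the mitochondrial gene for the same amino acid, threonine being taken as Tars without Tarsl2, the cytosolic level per kilobase exceeded the mitochondrial one by 1.17 times (Iars over Iars2) to 33.5 times (Nars over Nars2), with a median of 8.64. By the longest coding transcript the isoleucine ratio was 0.857, with the mitochondrial gene the higher, and the median was 9.75. Serine (31.6) and leucine (23.0) were near the top, and tyrosine (1.72) and valine (3.43) near the bottom. The log2 fold change with irradiation of the cytosolic gene lay below that of its mitochondrial partner in 12 of the 14 pairs. Leucine is among the 12 and rests on Lars2 in irradiated I and II, and the count was 11 without these libraries and 9 without non-irradiated I and III. Serine was an exception, at -0.10 for Sars and -0.29 for Sars2. Differences within single pairs were not tested.

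**Figure D4:**
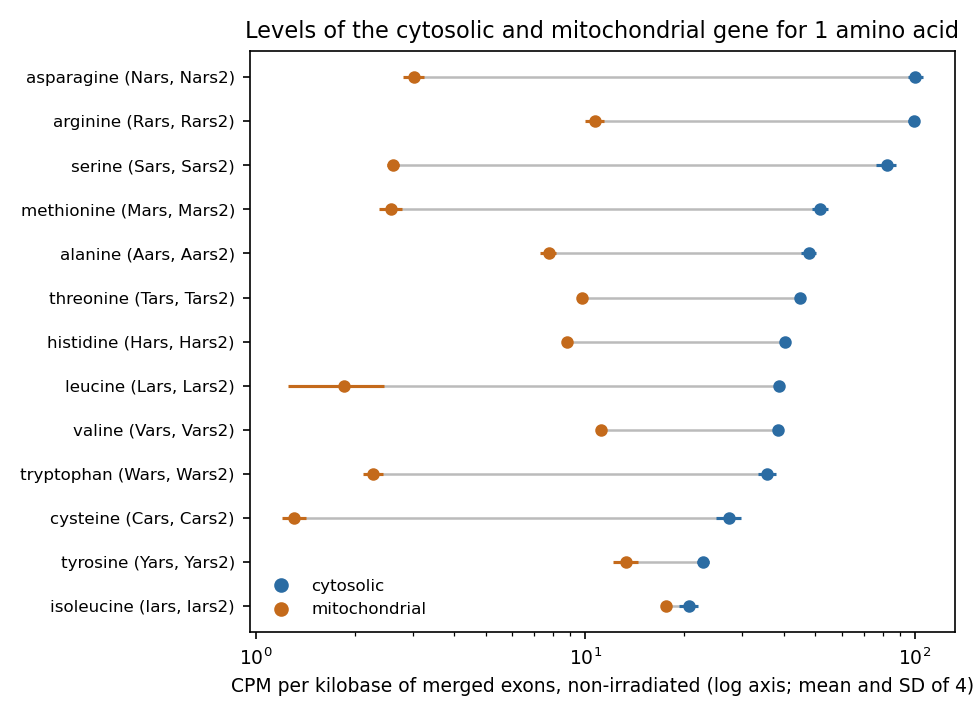
Level per kilobase of merged exons in non-irradiated libraries (horizontal axis, CPM per kilobase on a log axis; mean and SD of 4) for 13 of the 14 pairs of a cytosolic and a mitochondrial gene. Isoleucine has the closest pair (20.6 and 17.6) and asparagine the widest (100.6 and 3.02).

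Genes that work with the synthetases moved little. The 4 genes for the mitochondrial amidotransferase and methionyl-tRNA formylation (median log2 fold change 0.01), the 4 for selenocysteine synthesis and tRNA editing (-0.07) and the 9 mitochondrial translation factors (0.02) held no called gene. Of 5 cytosolic elongation factor genes, Eef1a1, which delivers charged tRNA to the ribosome, was called lower. It read 1573, 1042, 1385 and 1155 CPM without irradiation and 1017, 993.7, 1053 and 906.3 CPM after it. Irradiated III overlapped non-irradiated II, and the non-irradiated libraries were the more scattered group (log2 fold change -0.38, SE 0.10, adjusted p = 0.0372). Among the 8 omissions of 1 library it stayed called only without non-irradiated II or IV.

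The amino acid response genes, targets and members of the ATF4 pathway that includes many cytosolic synthetases, held more called genes than the synthetases. Of 30 listed genes 29 were tested, 14 were called lower and 4 higher, and their median was -0.15, where 4.15% and 2.59% of all genes were called in these directions. The list was chosen with results of these data known and its genes share regulators, so the count is a description. Called lower were the serine synthesis genes Psat1, Phgdh and Psph, the mitochondrial one-carbon enzymes Shmt2 and Mthfd2, the asparagine synthetase Asns, the cysteine-forming Cth, Aldh18a1 of proline synthesis, the regulators Trib3 and Atf5, and the transporters Slc7a11, Slc7a5, Slc7a1 and Slc1a5. Of these 14, the 9 genes Psat1, Phgdh, Shmt2, Mthfd2, Asns, Cth, Trib3, Slc7a5 and Slc7a1 were called whichever 1 library was left out. Psat1, Mthfd2, Cth and Slc7a1 were also called without irradiated I and II and without non-irradiated I and III.

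Psat1, phosphoserine aminotransferase, stood at 89.1, 80.2, 86.1 and 87.9 CPM without irradiation and at 61.8, 58.9, 63.8 and 63.9 CPM after it. Its groups were well apart (log2 fold change -0.47, SE 0.05, adjusted p = 4.19e-05), a larger change than that of any cytosolic synthetase. Cth lay at -0.55, Phgdh at -0.43, Asns at -0.24 and Slc1a5 at -0.14, close in size to Yars. Sesn2, a leucine sensor that is also a p53 target, was called higher: 135.1, 132.1, 134.1 and 128.4 CPM became 162.2, 150.1, 169.4 and 165.3 CPM (0.29, adjusted p = 0.000768), a call kept in each of these omissions. Atf3 (0.35), Ddit4 (0.18) and Cebpb (0.99) were the other genes called higher, and Cebpb was high mainly in irradiated III and IV (150.5 and 183.0 CPM against 46.1 to 80.1 in the others). Each of these 3 calls was lost when certain single libraries were left out: Atf3 without non-irradiated I or III or irradiated III or IV, Ddit4 without non-irradiated II or IV or irradiated I or III, and Cebpb without non-irradiated I, II or IV or irradiated III or IV (highest adjusted p 0.102, 0.100 and 0.135).

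The mRNA of Atf4 itself, whose product is controlled mostly by translation, was level at 488.8, 489.4, 511.9 and 497.4 CPM and at 482.1, 475.1, 516.0 and 489.2 CPM, with a log2 fold change of -0.02 and an adjusted p of 0.822. Ddit3 was at 0.03 (adjusted p = 0.754). Among 7 eIF2 kinases and amino acid sensors, Eif2ak2, the kinase activated by double-stranded RNA (0.17, adjusted p = 0.0368), and Impact, an inhibitor of GCN2 activation (0.20, adjusted p = 0.0171), were called higher. Impact lost its call without irradiated III or IV, and Eif2ak2 kept its call only without non-irradiated IV or irradiated I. Eif2ak4, the gene of GCN2, was at -0.08 (adjusted p = 0.278). Over all partner and response lists together 15 genes were called lower and 6 higher, and the lower count dropped to 5 without irradiated I and II and to 7 without non-irradiated I and III, the latter chosen after seeing the data. Leaving out irradiated IV alone gave 9 lower and 2 higher, leaving out irradiated III gave 1 higher, and leaving out non-irradiated I or II gave 3 higher. Calls fell over all genes too. At first 634 of 15259 genes were called lower and 395 higher. Lower calls were 295 of 15702 without irradiated I and II, and 579 of 15843 without non-irradiated I and III. Without irradiated IV 415 genes were called lower and 221 higher. Higher calls were 234 without irradiated III, 257 without non-irradiated I and 367 without non-irradiated II. The part of the mitochondrial rRNA of irradiated I and II in these counts was not tested.

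**Figure D5:**
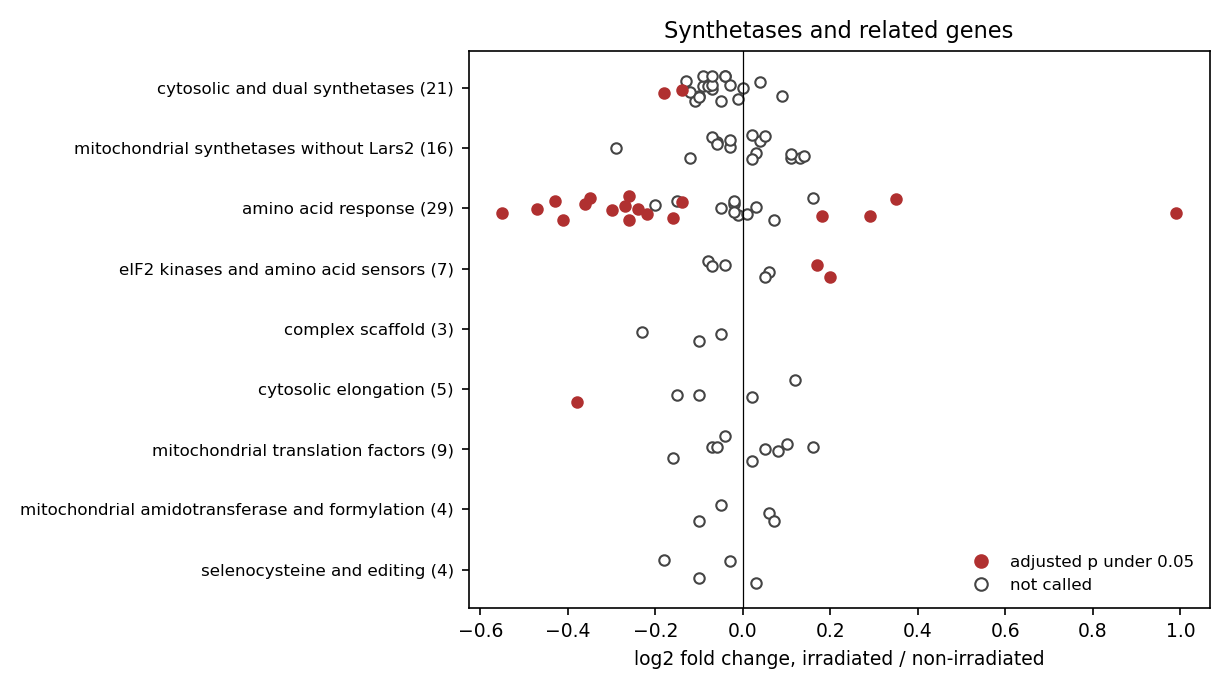
Log2 fold change, irradiated over non-irradiated (horizontal axis), of each synthetase except Lars2 and of the genes in 7 related lists (points are genes, filled where the adjusted p was under 0.05, number of genes tested in brackets). Synthetases cluster near 0, while 14 amino acid response genes lie to the left as called and 4 to the right.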

How the data were processed

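The authors deposited whole-number read counts per Ensembl gene, 1 file per library, unnormalized. The submitters' processing notes name featureCounts 1.5.0-p1, STAR 2.5.2a, bcl2fastq 2.20.0.422 and the mm10 build. Not given in the sources used here are strand setting, annotation release and treatment of multimapping reads, so overlapping genes and near copies are uncertain. GENCODE M21 named 55480 of 55573 identifiers, and the 93 others held 0.000431% of counts. Counts were tested with edgeR 4.0.16 (R 4.3.3): TMM factors, filterByExpr (minimum count 10, total 15, leaving 15259 genes), quasi-likelihood test with group as the sole term, Benjamini-Hochberg over all genes, calls at an adjusted p under 0.05. The fit was tested on simulated data whose changes were all larger than those of Vars and Yars. Recovery of changes as small as theirs was not tested. Levels are CPM on TMM-scaled library sizes. Intervals and p-values do not cover differences between cultures that the labels leave unnamed.

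Members and lists were chosen with earlier results of these data known. Named in full are Lars2, called members, and per class the 3 with the largest fold change either way and the 3 highest per kilobase. Others, such as Lars and Farsb, were added after their values were seen. Alternatives were DESeq2 1.42.0, limma-voom (limma 3.58.1), upper-quartile and RLE factors, other filters, a threshold of 0.01, library size without the mitochondrial genome, a replicate block and leaving out libraries. No pair of libraries within a group agreed within counting noise, but some pairs were more alike than others. Chi-square per degree of freedom, larger for less alike libraries, was 5.52 for irradiated I with II and 5.14 for III with IV. Across these pairs it was 16.1 to 27.8. For non-irradiated II with IV it was 5.33 and for I with III 8.46, against 9.89 to 13.9 across them. What sets these pairs apart was not tested. Proteins and promoters of 10 members are not used here, and a few items are not reported here.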

Additional observations from a re-analysis of the deposited data

Results flagged for a closer look

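In 5 of 76 groups of 4 libraries (38 members, 2 groups each) 1 library lay far from the other 3, where chance alone sets aside about 1 group in 20. Irradiated III stood high for Yars at 127.8 CPM, with the other 3 at 120.3 to 120.9, and for Rars at 334.3 CPM, with the others at 310.8 to 313.7. Non-irradiated III stood high for Hars, the cytosolic histidyl enzyme, at 103.0 CPM against 97.2 to 97.8. Irradiated II stood high for Cars2 at 11.7 CPM against 9.61 to 9.93, and irradiated IV for Rars2 at 31.7 CPM against 29.4 to 29.5. Lars2 was not among them, because its 2 high libraries do not leave 1 library apart from the rest by this measure.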

How the results depend on the processing

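Precision is limited by 4 libraries a group and, for the least abundant members (Sars2, Tarsl2, Cars2), by 205 to 386 counts per library. Members called lower, 2 at first, numbered 3 with DESeq2, adding Lars, 3 with the replicate block, adding Mars (adjusted p = 0.0488), 1 at a threshold of 0.01, 0 without irradiated I and II, and 1 to 2 when 1 library was left out. Over all genes, lower calls, 634 at first, numbered 775 with DESeq2, 802 with the block and 295 without irradiated I and II. They numbered 415 to 611 when 1 library was left out. Members called higher, 0 at first, numbered 1 without a filter (Lars2, 2.98, SE 0.05, with Sars2 called lower there at an adjusted p of 0.0412) and 0 to 1 when 1 library was left out. That SE, against 0.91 at first, does not cover the spread of Lars2 among irradiated libraries, 11.6 to 499.5 CPM. Over all genes, higher calls, 395 at first, numbered 648 of 32976 without a filter and 221 to 402 when 1 library was left out. Partner and response genes called lower, 15 at first, numbered 5 without irradiated I and II, 7 without non-irradiated I and III, 6 at 0.01 and 9 to 16 when 1 library was left out. Those called higher, 6 at first, numbered 1 at 0.01 and 1 to 6 when 1 library was left out. Among the members named in full, direction turned for Lars2 (-0.75 without irradiated I and II), Rars (0.01 there and without non-irradiated I and III, and -0.04 to 0.01 when 1 library was left out), Iars2 (-0.01) and Vars2 (0.01, both without non-irradiated I and III). Of the other members, Cars, Nars2, Qars, Rars2 and Wars, all within 0.07 of 0 at first, turned in at least 1 omission of libraries, leaving aside values that round to 0.00. The causes were not tested. The labels do not say whether replicate numerals pair the samples, and the correlations do not settle it. Deviations of same-numbered libraries correlated at 0.02, -0.03, 0.27 and 0.15, and those of other numerals at -0.23 to 0.15. Of the 4 non-irradiated libraries, 2 correlated best with their own numeral. With the block, 3 members were called lower and 0 higher, and Lars2 stood at 1.57. Over all genes the block gave 802 lower and 550 higher calls, against 634 and 395 without it. Leaving out non-irradiated I and III was chosen after seeing the data.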

Other observations

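Synthetases fall into 2 unrelated catalytic classes by the fold of their active site. The 9 cytosolic class I genes had a median log2 fold change of -0.11 and held both called members, Vars and Yars, and the 11 cytosolic or dual class II genes had a median of -0.07 and none called. Eprs, which holds a domain of each class, stood at -0.03. Without non-irradiated I the medians were -0.06 and -0.07, and without non-irradiated I and III they were -0.06 and -0.05. The order of the classes thus changed with the libraries left out. The difference between the classes was not tested.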
